A study of Drosophila melanogaster with 3 samples.

Results

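The chemoreceptor genes of Drosophila melanogaster were taken as the protein-coding genes whose symbol is Gr, Or or Ir followed by digits and a lower-case letter in the BDGP6 gene models. The rule found 179 of 13945 protein-coding genes, of which 60 were gustatory receptor (Gr), 59 odorant receptor (Or) and 60 ionotropic receptor (Ir) genes. It used no measured value. The sites set against them were binding peaks of CG4328, a LIM-homeodomain transcription factor, mapped by chromatin immunoprecipitation and sequencing (ChIP-seq) with an antibody to green fluorescent protein (GFP). The flies were a transgenic line that stably carries CG4328 with GFP at its C-terminus, and the material was whole embryos of mixed sex, 8 to 24 h old by the source name, in 3 biological replicates. Another age label holds a value that is no embryo age and was not used. The sources used here do not give the promoter that drives the fusion. There was 1 group only, so the comparison is between genes and not between treatments.

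Gr and Or proteins are ligand-gated channels of the insect nervous system, and Ir proteins are related to ionotropic glutamate receptors. Most members are used in few sensory neurons, which take up taste, smell, temperature or humidity. Tuned Or proteins need the co-receptor Orco, and tuned Ir proteins need a broad partner such as Ir8a, Ir25a or Ir76b. Orco has no number in its symbol, so it was not among the 179 genes and is described beside them. In whole embryos, weak binding in many cells and strong binding in few cells cannot be told apart.

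All positions are in dm6. The authors deposited an "optimal" list of 3688 peaks, thresholded for reproducibility, and relaxed lists of 30000 peaks each from replicates 1, 2 and 3 and from their pool, which hold peaks together with background. Peaks were ranked within a list by the authors' signal value, rank 1 being the highest, and a summit counts for whichever gene starts closest to it, which need not be a gene it controls. A summit within 500 bp of a start was classed as promoter, and a negative distance is upstream of the start. Read depth is unknown for all 3 libraries. Replicate 3 stood apart from the others: 17.6% of its summits were in the promoter class, against 30.2% in replicate 1 and 32.9% in replicate 2. Its peaks overlapped a replicate 1 peak in 40.6% of cases, whereas 69.1% of replicate 2 peaks did. Results are therefore given with and without it.

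The optimal list came close to few chemoreceptor genes. It had 4 members as nearest gene, 2.23% of 179 (95% Wilson interval 0.872 to 5.60%), against 18.4% of all protein-coding genes. The 4 were Gr89a, Gr93a and Gr93d of the gustatory family and Ir48b of the ionotropic family, while no Or gene was among them. All 4 summits were intergenic, and the promoter class held 0 members (upper Wilson limit 2.10%) against 12.6% of all genes. The intervals cover the number of genes and no spread between embryo collections.

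The sequences under the optimal summits of the Gr genes are shown with that of the co-receptor gene Orco and with that of Or33a, an Or gene whose pooled peak had a counterpart in all 3 replicates, chosen after these values were seen. Each run is the dm6 plus strand from 100 bp before to 100 bp after the summit, 5′ to 3′. Capitals mark matches, on either strand, to 6 motifs that were searched: the homeodomain core TAATTA, the TATA box TATAAA, the DNA replication-related element TATCGATA, Motif 1 GGTCACACT, the promoter element CAGCNCTG and the GAGA factor site GAGAGAG.
Gr89a: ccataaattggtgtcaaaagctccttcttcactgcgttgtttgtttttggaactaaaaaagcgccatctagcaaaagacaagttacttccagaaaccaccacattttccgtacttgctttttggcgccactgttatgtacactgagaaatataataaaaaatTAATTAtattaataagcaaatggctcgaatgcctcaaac
Gr93a: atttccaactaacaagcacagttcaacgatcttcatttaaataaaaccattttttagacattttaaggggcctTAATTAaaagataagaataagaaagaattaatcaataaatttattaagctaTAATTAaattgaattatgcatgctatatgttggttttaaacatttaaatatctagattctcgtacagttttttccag
Gr93d: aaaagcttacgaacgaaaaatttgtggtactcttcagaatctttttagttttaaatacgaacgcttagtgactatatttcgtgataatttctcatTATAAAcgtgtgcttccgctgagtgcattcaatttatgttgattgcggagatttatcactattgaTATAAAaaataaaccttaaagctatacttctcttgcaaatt
Orco: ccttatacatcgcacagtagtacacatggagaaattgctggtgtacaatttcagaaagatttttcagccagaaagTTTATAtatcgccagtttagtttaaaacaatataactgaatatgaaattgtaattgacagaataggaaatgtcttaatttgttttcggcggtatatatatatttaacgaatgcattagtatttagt
Or33a: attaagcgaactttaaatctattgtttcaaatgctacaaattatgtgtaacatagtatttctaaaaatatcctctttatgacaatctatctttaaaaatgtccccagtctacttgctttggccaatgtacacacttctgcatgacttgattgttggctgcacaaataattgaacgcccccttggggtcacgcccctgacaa
These windows lie at chr3R:16497463-16497663 (Gr89a), chr3R:21828920-21829120 (Gr93a), chr3R:21849060-21849260 (Gr93d), chr3R:5412965-5413165 (Orco) and chr2L:11931749-11931949 (Or33a). TAATTA was present once beside Gr89a and at 2 places beside Gr93a. The windows of Gr93d and Orco held TATAAA, and that of Or33a held none of the 6 motifs. Of all 3688 optimal summit windows, 17.95% held TAATTA and 34.8% TATAAA. Of the 4 windows at members, 2 held TAATTA and 1 held TATAAA, and the window of Ir48b held neither. GC content was 35.8% for Gr89a, 24.4% for Gr93a, 30.3% for Gr93d, 29.9% for Orco and 36.8% for Or33a, against a median of 36.3% over all 3688 optimal summit windows.

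The Gr89a peak, at 3R 16497338 to 16497787, was the highest nearest to any member, with rank 2000 of the optimal list. Its summit lay 1396 bp downstream of the start and 254 bp beyond the 3′ end of this small gustatory receptor gene, with Cad89D, a cadherin gene, 2141 bp away on the other side. The overlapping replicate peaks ranked 2046, 3594 and 1305 in replicates 1, 2 and 3, so all 3 placed it within the first 3688. It was the only one of the 4 with that support. Orco, the shared co-receptor of odorant receptors, had an optimal peak ranked 2724 whose summit was 659 bp upstream of the start, and its replicate ranks were 2893, 2766 and 3541. Orco thus had a peak near the top of each replicate, while none of the 59 tuned Or genes was nearest to an optimal peak.

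A gene-body view gave 8 members with an optimal summit in the gene or within 1000 bp of its ends (4.47%, interval 2.28 to 8.57%), against 25.5% of all genes. Of these, 7 were next to a peak in the promoter class of a neighbour, and the other was Gr89a. The highest was beside Ir68b, where the peak ranked 102 sat 14 bp from the start of yps, which encodes a Y-box RNA-binding protein, and 323 bp beyond the 3′ end of Ir68b. Replicates 1, 2 and 3 ranked it 97, 100 and 102. Beside Ir31a, an antennal acid receptor gene, the peak ranked 985 sat 5 bp from the start of RpS27A, a ribosomal protein gene. The sequences at both neighbours are shown to set them beside those of the intergenic peaks, at chr3L:12125064-12125264 and chr2L:10408247-10408447.
yps beside Ir68b: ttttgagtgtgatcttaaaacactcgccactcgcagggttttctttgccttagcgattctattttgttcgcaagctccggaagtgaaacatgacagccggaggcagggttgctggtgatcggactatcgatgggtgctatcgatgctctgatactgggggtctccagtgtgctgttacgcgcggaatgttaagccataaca
RpS27A beside Ir31a: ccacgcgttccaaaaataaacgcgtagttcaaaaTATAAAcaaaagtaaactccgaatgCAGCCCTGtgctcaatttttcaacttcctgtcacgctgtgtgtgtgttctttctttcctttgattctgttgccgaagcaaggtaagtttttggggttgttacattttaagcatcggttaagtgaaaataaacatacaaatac
The window at yps had a GC content of 49.8% and matched no motif exactly, and that at RpS27A held CAGCNCTG and TATAAA. The other 5 pairs were Or85f beside CG34117 (rank 1078), Or88a beside CG12402 (1564), Gr32a beside Idua, a lysosomal iduronidase gene (2166), Or9a beside Neb-cGP (3201) and Gr59f beside AIMP3, a tRNA synthetase complex gene (3262). In these 5 pairs the summit lay 36 to 420 bp from the neighbour's start.

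Ir48b had the optimal peak ranked 3455, at 2R 11706193 to 11706642. Its summit was 3969 bp upstream of this orphan ionotropic receptor gene, with pyr, an FGF ligand gene, 5845 bp away on the other side. An overlapping peak ranked 3312 in replicate 1 and 8670 in replicate 3, and replicate 2 held none. Over all members, the median distance from a start to the closest optimal summit, whatever its nearest gene, was 26809 bp, against 9014 bp over all genes. It was 18388.5 bp for Gr, 42462 bp for Or and 24038 bp for Ir genes. An optimal summit within 5000 bp of a start was found for 24 members (13.4%), 14 Gr, 3 Or and 7 Ir genes, against 37.4% of all genes. The closest optimal summit was more than 50000 bp away for 49 members, a count that was not made over all genes. The upper quartile of this distance was 53784.5 bp for members, against 26809 bp over all genes.

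The relaxed lists differed among libraries. In the pooled list 59 members were nearest to a peak (33.0%, interval 26.5 to 40.1%) against 59.6% of all genes. In replicate 1 there were 50 (27.9%, 21.9 to 34.9%) against 61.3%, and in replicate 2 there were 38 (21.2%, 15.9 to 27.8%) against 59.5%. Replicate 3 had 102 (57.0%, 49.7 to 64.0%) against 59.1%, a share close to that of all genes. The low share of members was thus present in replicates 1 and 2 and in the pool, and not in replicate 3. Using pooled peaks that overlap a peak of replicate 1 or 2, 43 members had a peak (24.0%) against 55.2% of all genes.

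**Figure D1:**
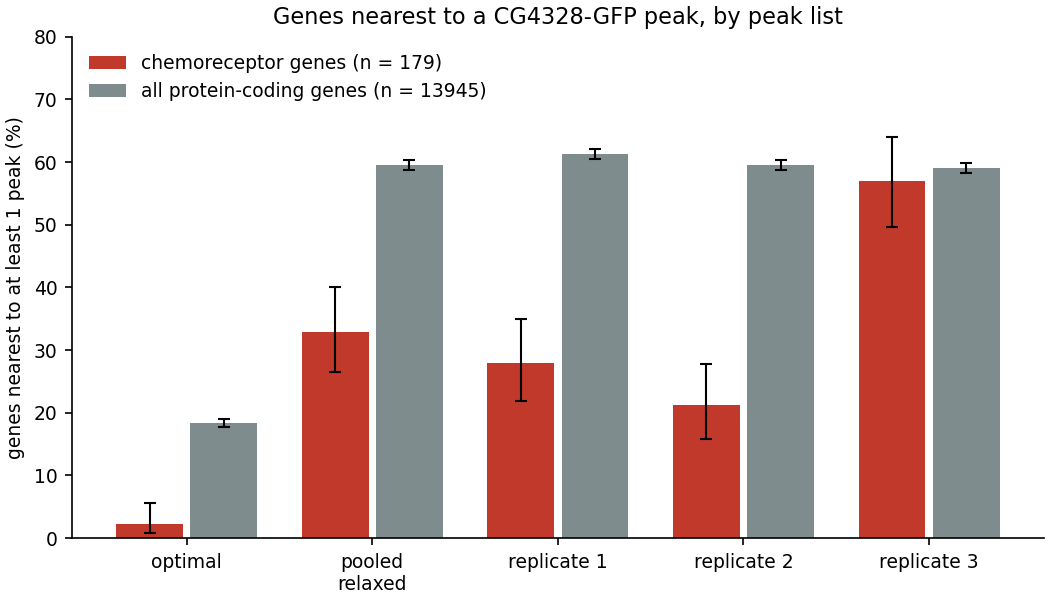
Share of genes (%) that are nearest to at least 1 peak in each of the 5 lists, for 179 chemoreceptor genes (red) and 13945 protein-coding genes (grey), with 95% Wilson intervals as error bars. The members stand at 2.23% against 18.4% in the optimal list and at 57.0% against 59.1% in replicate 3.

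The difference of replicate 3 lay below its highest peaks. Among the first 3688 peaks of each replicate, 5, 2 and 4 members had a peak in replicates 1, 2 and 3 (2.79, 1.12 and 2.23%), against 18.1, 17.8 and 18.4% of all genes. Among the first 15000 peaks of each list, members had 8.94% in replicate 1, 10.1% in replicate 2 and 34.6% in replicate 3, against 43.9, 43.3 and 44.6% of all genes. The first 15000 pooled peaks had 18 members (10.1%) against 42.7% of all genes. A promoter-class summit was found at 15 members in replicate 1 (8.38%), 5 in replicate 2 (2.79%) and 32 in replicate 3 (17.9%), against 43.4, 44.7 and 30.2% of all genes. In the pooled list it was found at 15 (8.38%) against 41.4%.

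The number of replicate lists with a peak nearest to each gene was counted next. Peaks counted together for a gene need not overlap and may be different peaks. A peak in all 3 replicates was found for 22 members (12.3%, interval 8.26 to 17.9%) against 37.3% of all genes, and in any replicate for 117 (65.4%) against 81.7%. Both replicates 1 and 2 had a peak at 26 (14.5%) against 50.7%, and at least 1 of them at 62 (34.6%) against 70.0%. Replicate 3 and neither of the others had a peak at 55 members (30.7%, 24.4 to 37.8%) against 11.6% of all genes. These 55 were spread over the families, with 18 Gr, 20 Or and 17 Ir genes, and 11 of them had a pooled peak. Or24a led them at rank 4001, followed by Gr59b at 4007 with its summit 77 bp upstream of the start, and by Ir84a, a receptor gene for food-derived aromatic odours, at 5051. Of the 291 replicate 3 peaks nearest to members, 14.8% overlapped a replicate 1 peak, against 40.6% of all replicate 3 peaks. From replicate 1 to replicate 2 the overlap was 49.1% for member peaks, against 66.6% for all. In replicate 3, 20.6% of member summits lay in coding sequence, against 12.0% of all its summits.

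The length of sequence to which peaks could be assigned was measured next. The genome nearest to their starts was 1.57 Mb of 133.9 Mb, which is 1.17%, with a median of 4304 bp per gene against 4323 bp over all genes. For 2 members, Gr64b and Gr10a, a start is shared with another member, so no summit could be assigned to them. Per Mb of this sequence there were 2.55 optimal summits, against 27.5 over all genes. In the relaxed lists there were 96.8 per Mb in the pool, 70.0 in replicate 1, 66.9 in replicate 2 and 185 in replicate 3, against 224 per Mb over all genes in each. By family the pooled value was 134 per Mb for Gr, 102 for Or and 70.4 for Ir genes. Members with a pooled peak had a median of 9050.5 bp nearest to them and those without 3527.75 bp, while over all genes it was 6341.5 and 2573 bp.

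The pooled list held 152 summits nearest to members, and they stood low in it. Their median rank was 21040 and 25% were among the first 15000. The median rank was 19294.5 in replicate 1, 18105 in replicate 2 and 17597 in replicate 3, against 15000.5 over each whole list. In bands of 5000 ranks, from the top down, the pooled list had 9, 10, 19, 31, 35 and 48 member summits, so their number was greater in each lower band. Replicate 3 had 12, 43, 58, 59, 52 and 67. In its top band replicate 3 had 0.24% of peaks at members, and in the lower bands 0.86 to 1.34%, around the members' share of the genome.

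**Figure D2:**
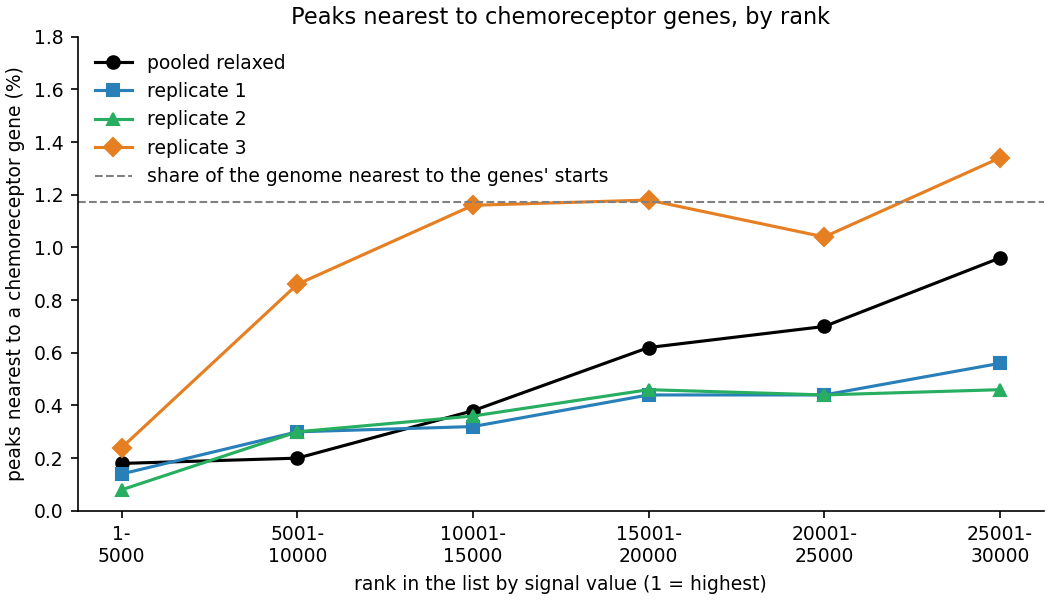
Share of peaks (%) nearest to a chemoreceptor gene in each band of 5000 ranks, from the highest band at left, for the pooled list (black circles) and replicates 1 (blue squares), 2 (green triangles) and 3 (orange diamonds). The dashed line is the members' 1.17% share of the genome; the pooled list lies at 0.18% in the top band and 0.96% in the lowest.

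Pooled summits nearest to members lay mostly outside genes. The intergenic class held 59.9% of them, against 19.5% of all pooled summits, and the promoter class 10.5% against 28.6%. Introns held 20.4% against 44.3%, and exons outside promoters 9.21% against 7.60%. The median distance to the start was 3675.5 bp, against 1799 bp. The highest pooled summit in the promoter class of a member was that of Gr77a, at rank 14668 and 121 bp upstream. It was followed by Gr61a at 16675 and by Gr28b at 16810. The Gr77a peak overlapped a peak in replicates 1, 2 and 3, that of Gr61a in replicates 1 and 2, and that of Gr28b in none.

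The 59 genes were 19 Gr (31.7%), 27 Or (45.8%) and 13 Ir genes (21.7%). Exactly 1 pooled summit was found at 32 of them, and 10 genes with 5 or more held 75 of the 152 summits. Or67d, the receptor gene for the male pheromone cis-vaccenyl acetate, had the most, 14, spread over 72854 bp nearest to it. Its highest pooled summit, at rank 7664, was 66406 bp downstream of the start in a long interval before CG12362. Outside the optimal list, the next genes were Or88a at 4033, Gr93b at 4321, Or45b at 4322, Or33a at 4455 and Or1a at 6037. The Or88a peak, 504 bp upstream of this pheromone receptor gene, overlapped the optimal peak at CG12402 and so was not separate from it. Or45b and Or1a, both odorant receptor genes of the larva, had summits 5314 and 3525 bp upstream, the second in an intron of CG3777. The highest peaks assigned to Or33a ranked 5276, 7141 and 2931 in replicates 1, 2 and 3, and those of Or1a 5312, 7874 and 7401, so both were present in all 3 libraries, with Or33a among the first 3688 peaks of replicate 3 only.

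**Figure D3:**
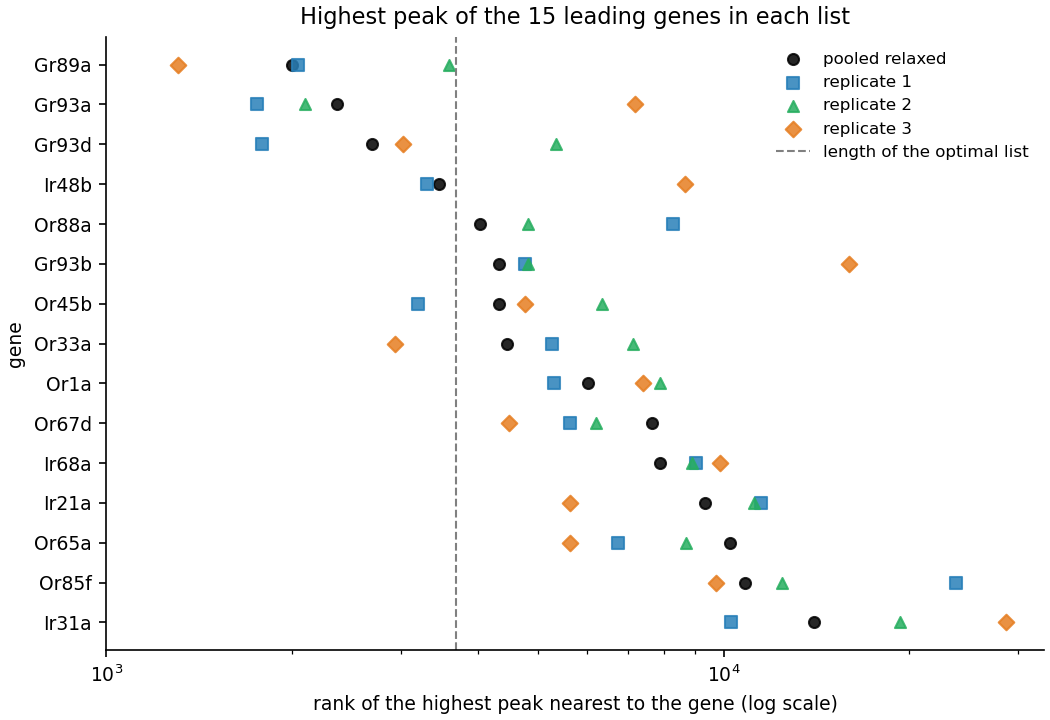
Rank (log scale, higher peaks at left) of the highest peak nearest to each of the 15 members that lead the pooled list, in the pooled list (black circles) and replicates 1 (blue squares), 2 (green triangles) and 3 (orange diamonds). The symbols of a gene may be different peaks; a missing symbol means no peak in that list, and the 4 members whose black circle lies left of the dashed line at rank 3688 are those of the optimal list.

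The Gr93 cluster on 3R held the most pooled summits of the clusters with Gr genes, while the highest-ranked Gr peak was that of Gr89a, at 2000. Gr93a, a receptor gene needed for the taste of caffeine, had 12 pooled summits, Gr93b 5 and Gr93d 5, while Gr93c, which lies between Gr93b and Gr93d, had 0 in every list. Together they were nearest to 22 of the 152 pooled summits, and to 16, 20 and 11 summits in replicates 1, 2 and 3. Of the 9 member summits among the first 5000 of the pooled list 4 were in this cluster, and of the 19 among the first 10000 there were 8. Some of these pooled peaks overlap each other and were counted separately. Those at ranks 2692 and 4270 beside Gr93d overlapped the same replicate peaks, as did those at 2365 and 7617 beside Gr93a. The optimal peak at Gr93a (3R 21828795 to 21829244, rank 2365) was 3483 bp upstream of the gene. It overlapped peaks ranked 1754 and 2098 in replicates 1 and 2 and none in replicate 3. The optimal peak at Gr93d (3R 21848935 to 21849384, rank 2692) was 2501 bp upstream of it and 1534 bp from glec, the gliolectin gene. Its replicate ranks were 1790, 5361 and 3022. The Gr93b summit at rank 4321 lay in the interval between Gr93a and Gr93b, with peaks ranked 4772 and 4824 in replicates 1 and 2 and none overlapping in replicate 3.

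**Figure D4:**
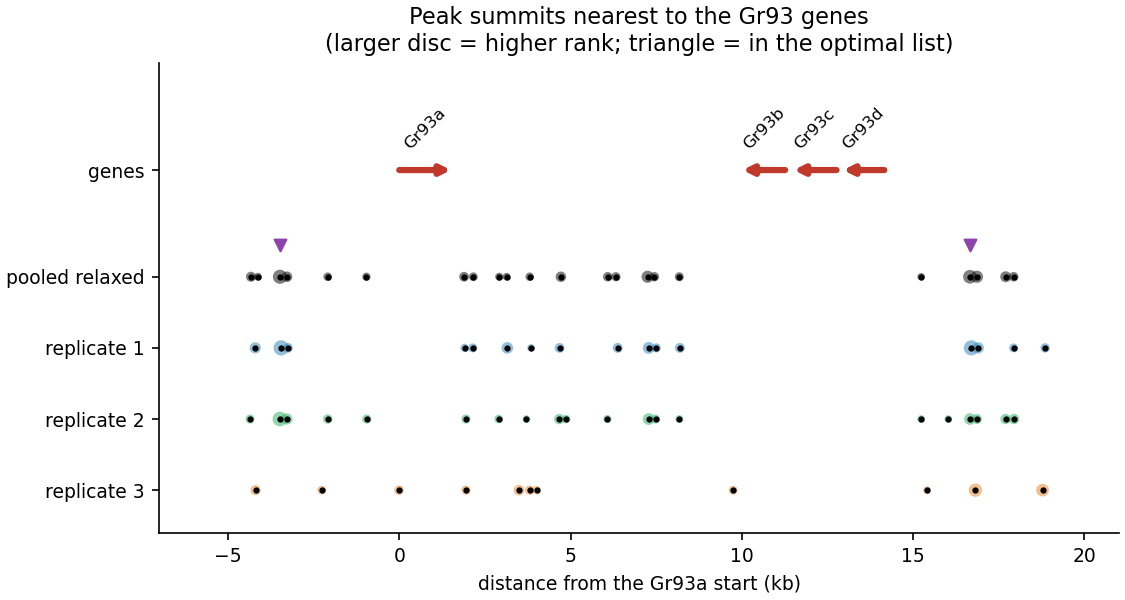
Peak summits nearest to the Gr93 genes by distance from the Gr93a start (kb), in the pooled list and in replicates 1, 2 and 3; arrows are the genes in their direction, disc area falls with rank, and triangles mark the 2 summits of the optimal list. The 22 pooled summits lie upstream of Gr93a, between Gr93a and Gr93b, or upstream of Gr93d, and none is nearest to Gr93c.

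The cluster accounted for much of the Gr density. With overlapping peaks counted separately throughout, pooled summits were 922 per Mb over its 23874 bp, and 72.3 per Mb for the 56 other Gr genes. For all 175 members outside the cluster the value was 84.1 per Mb, and 1.29 optimal summits per Mb. Of these 175, 56 had a pooled peak, against 59 of 179 with the cluster.

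Members often lie side by side. A cluster was a run of members with no other coding gene between them in order, and 28 clusters held 80 members. Of these 80, with Gr93 among them, 17 had a pooled peak (21.3%, interval 13.7 to 31.4%), against 42 of the 99 other members (42.4%, 33.2 to 52.3%). The clustered genes had less sequence nearest to them, 3258.5 bp against 5648.5 bp in the median, and the summits per Mb were 98.3 for clustered and 96.2 for other members. Without the Gr93 cluster, 14 of 76 clustered members had a pooled peak (18.4%, 11.3 to 28.6%), and their summits were 49.6 per Mb. Of the 27 clusters other than Gr93, none had an optimal, 11 a pooled, 7 a replicate 1, 6 a replicate 2 and 23 a replicate 3 summit. The 6 sugar receptor genes Gr64a to Gr64f had 0 summits in the pool and in replicates 1 and 2, and 4 in replicate 3. Ir7c to Ir7g and Gr58a to Gr58c had 0 in every list. Gr22a to Gr22e had 1 pooled summit, Or33a to Or33c 2 and Or65a to Or65c 4. Among the 30 members inside another gene, 9 had a pooled peak (30.0%, interval 16.7 to 47.9%). This was close to the 50 of 149 other members (33.6%, 26.5 to 41.5%), with all genes at 59.6%. The 30 include members inside another member, such as Gr64e in Gr64d.

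The co-receptors and other receptors of known role were then read gene by gene. Of the Ir co-receptors, Ir25a had a pooled summit at rank 20823, inside the gene, 210 bp upstream of an inner start and 747 bp downstream of the outermost one. Its highest peaks ranked 20942, 29094 and 26290 in replicates 1, 2 and 3, and they need not lie at that summit. Ir8a had no peak in any list, Ir76b had none in the pool and peaks at 20865 and 20362 in replicates 2 and 3, and Ir93a had 1, at 28107 in replicate 3. Thus 1 of these 4 Ir co-receptor genes had a pooled peak. About 45.8% of the Ir93a gene and its flanks consists of sequence that recurs in the genome, and its part in the result was not tested.

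Of the thermo- and hygroreceptor genes, Ir68a, needed for moist sensing, had 7 pooled summits led by rank 7894, 8007 bp upstream and almost midway to scyl. Ir21a, needed for cool sensing, had 8, the highest at 9313 in an intron of Cda5. Ir40a, needed for dry sensing, had peaks in replicate 3 only, the highest at 19792. Gr28b, a warmth receptor gene, had 1 pooled summit, inside the gene and 62 bp upstream of an inner start, at rank 16810. No peak of replicate 1, 2 or 3 overlapped that Gr28b peak. In replicates 1, 2 and 3 the highest peaks of Ir68a ranked 9010, 8900 and 9871, and those of Ir21a 11487, 11182 and 5639. They did not all lie at the leading pooled summit. Peaks that overlapped the leading pooled peak ranked 9010, 10070 and 11554 at Ir68a, and 17298, 24630 and 5639 at Ir21a.

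The carbon dioxide receptor genes Gr21a and Gr63a had pooled summits at ranks 25269 and 24685. Of the sugar receptor genes, Gr5a and Gr43a, the fructose receptor gene, had no peak in any list. Gr61a had a pooled summit 4 bp upstream of its start at rank 16675, which was 87 bp from JMJD5, and peaks at 10523 and 25988 in replicates 1 and 2. Of the bitter receptor genes, Gr66a had a pooled summit at 27526, Gr33a and Gr32a had peaks in replicate 3 only, at 11104 and 9637, and Gr93a is described above. Of the odorant receptor genes, Or22a had no peak, Or42b had a pooled summit at 21345 and Or42a a replicate 3 peak at 18181. Or83a had a replicate 2 peak only, at 15807. Of Or85a to Or85f, Or85e (20668) and Or85f (10829) had pooled peaks, and Or85a, Or85b, Or85c and Or85d had peaks in replicate 3 only.

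Promoters of the members were set beside those of all genes and of genes with an optimal promoter peak. For each gene 1 window, from 250 bp before to 50 bp after its outermost start (300 bp, RefSeq genome), was searched on both strands. Overlapping matches of different motifs were each counted. An optimal promoter peak could lie at another start of its gene, away from the window searched. TATCGATA, the site of the replication-related factor DREF, was in 1 member window (0.559%) against 9.36% of all promoters and 13.1% of the 1760 with an optimal promoter peak. Motif 1 was in 0 against 6.05 and 7.95%, CAGCNCTG in 1.68% against 7.31 and 11.6%, and GAGAGAG in 1.12% against 5.87 and 8.64%. TAATTA, the homeodomain core, was in 44.7% of member windows (interval 37.6 to 52.0%) against 20.4% of all promoters and 22.0% of those with a peak. It was in 58.3% of Gr, 44.1% of Or and 31.7% of Ir windows. TATAAA was in 54.2% against 45.8 and 45.9%, but the families differed, with 78.0% of Or (65.9 to 86.6%), 55.0% of Ir and 30.0% of Gr windows (19.9 to 42.5%). GC content was near that of all promoters, at a median of 39.3% against 38.0%. A match is a description of the letters and not of binding.

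**Figure D5:**
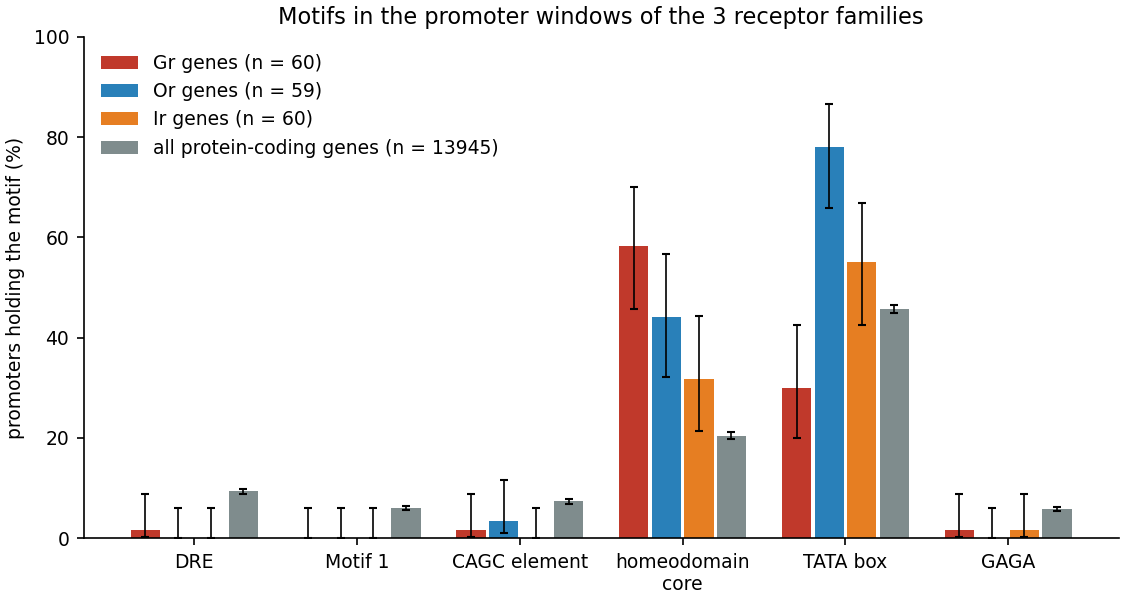
Share of promoter windows (300 bp, %) that hold each of 6 motifs on either strand, for Gr (red), Or (blue) and Ir genes (orange) and all protein-coding genes (grey), with 95% Wilson intervals as error bars. The DNA replication-related element (DRE), Motif 1, the CAGCNCTG element and the GAGA site are near 0 in the members, TAATTA is highest in Gr windows at 58.3% and TATAAA in Or windows at 78.0%.

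The same motif was sought at the peaks. TAATTA was within 100 bp of 18.4% of the 152 pooled member summits (13.1 to 25.3%), against 13.4% of all pooled summits. It was at 18.2% (12.1 to 26.4%), 19.0% (12.7 to 27.6%) and 18.2% (14.2 to 23.1%) of member summits in replicates 1, 2 and 3. The shares of all summits were 13.3, 12.9 and 13.1%. Each other motif searched was at a lower share of pooled member summits than of all, TATAAA at 20.4% (14.8 to 27.5%) against 25.5%. TATCGATA and Motif 1 were each at only 1 of the 152. The order was the same in replicate 3 but not throughout replicates 1 and 2. TATAAA was at 27.6% of replicate 2 member summits against 25.2% of all. In replicate 1, TATCGATA was at 1.82% against 1.73% and GAGAGAG at 4.55% against 4.33%. The remaining shares in replicates 1 and 2 were lower at member summits. Member summits and all summits differ in position class, as given above, and shares within a class were not compared. Sequence recurring elsewhere in the genome made up a median of 0% of the member genes and their flanks, as it did over all genes. It exceeded 50% at 2 of 179 members (1.1%), against 2.3% of all genes. The 2 were the near-identical pair Or19a and Or19b, which had no peak in any list.

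Genes that act with the receptors or are arranged like them were set beside the members. The 13 companions were olfactory accessory genes, sensory channels and transcription factors of sensory neurons. Of these, 1 had an optimal peak (Orco, 7.69%, interval 1.37 to 33.3%), against 18.4% of all genes. A pooled peak was found at 9 (69.2%, 42.4 to 87.3%), against 59.6%. After Orco, the pooled ranks were 4440 for scrt, a neuronal zinc finger gene, 8642 for sens, the sensory organ factor gene senseless, and 8900 for onecut. Snmp1, nompC, pdm3, Snmp2 and acj6 followed at 10440, 14792, 15077, 22445 and 25844. The proneural genes ato and amos, which specify sense organs, had none in the pool, and neither had lush and TrpA1. In the replicates, amos had peaks at ranks 9333 and 3904 in replicates 1 and 3, and ato had 1 at 8734 as its highest, in replicate 3 only. TrpA1 had peaks in replicate 3 only, the highest at 6392, and lush had no peak in any list. Optimal peaks were found at 7.84% of 51 odorant-binding protein (Obp) genes, 5.71% of 70 cuticle protein (Cpr) genes and 6.90% of 29 ppk channel genes. Their intervals of 3.09 to 18.5, 2.24 to 13.8 and 1.91 to 22.0% overlapped that of the members. They rest on 4, 4 and 2 genes with a peak, too few to tell whether these tissue-restricted families differ from the members. Per Mb of sequence nearest to the genes, the families had 10.8, 11.5 and 24.2 optimal summits, against 2.55 for the members and 27.5 over all genes. Pooled summits were 180, 158 and 242 per Mb, against 96.8 for the members and 224 over all genes. The pooled shares of these families were 41.2, 38.6 and 44.8%, above the 33.0% of the members and below the 59.6% of all genes.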

How the data were processed

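ChIP-seq peaks of CG4328-GFP were analysed in 3 replicates of 1 group, mapped to replicate numbers by the labels. The deposited signal values were written by the authors' pipeline on an unstated scale, and here they served to order the peaks of a list. Per the labels' notes, the pooled list came from the alignments of all 3 replicates and the optimal list from the relaxed lists. For the aligner, peak caller and reproducibility threshold, names and versions were not given in the sources used here, and the depth of each library is unknown. The dm3 lists were not used, and 0 columns of per-sample values were left unassigned.

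Summits were annotated with BDGP 6.54 models (Ensembl release 115) and RefSeq release 6 sequence, whose arm lengths match dm6, on 6 chromosome arms. Coordinates are 1-based. Peaks overlapped when they shared at least 1 bp. Recurring sequence was the share of 31-mers of a gene and 1000 bp to each side found elsewhere in the genome. The assignment code was tested on simulated data. Python 3.11.15, numpy 2.4.6, pandas 2.3.3, scipy 1.17.1 and matplotlib 3.10.9 were used. Members, gene lists and motifs were chosen with earlier results of these data known, so no test was run and only counts beside those over all genes are given. Named genes were the members nearest to an optimal peak, the 10 leading the pooled list, those with an optimal summit within 1000 bp of the gene, and receptors of known role. Gr22, Or65, Gr58, Ir7 and other cluster counts, Gr59b, Or24a, Ir84a, Gr77a, Or19a and Or19b were added after their values were seen. Assignment to a gene, list length, merging of overlapping peaks and each replicate were varied.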

Additional observations from a re-analysis of the deposited data

How the results depend on the processing

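The 4 members with an optimal peak (2.23%, against 18.4% of all genes) became 0 with summits within 500 bp of a start (12.6% of all genes), 8 (4.47%) with gene bodies and 1000 bp to each side (25.5%), 0 in the first 50% of the list (10.6%) and 9 (5.03%) in the pooled list at 2 times the length (29.2%). When each replicate was left out in turn they were 1 to 2, against 12.0 to 14.0% of all genes. Here an optimal peak counted only if it overlapped a peak among the first 3688 of both other replicates. The optimal list was not called anew, and the 4 needed no such overlap, so the count could only stay or fall. With 1 start per gene, 5 members (2.79%) had an optimal peak, against 18.7% of all genes. With overlapping peaks merged there were 4 (2.23%), against 18.1%. The 59 members with a pooled peak became 15 (8.38%) within 500 bp of a start (41.4% of all genes) and 18 (10.1%) in the first 15000 peaks (42.7%). They were between 43 and 61 (24.0 to 34.1%) under the 4 other alternatives, against 55.2 to 66.5% of all genes. The 22 members with a peak in all 3 replicates became 10 (5.59%) in the first 15000 peaks of each list (25.03%), and 26 to 38 when 1 replicate was left out (41.3 to 50.7%). The 117 with a peak in any replicate became 62 to 114 when 1 replicate was left out. The lowest, 34.6% against 70.0% of all genes, was without replicate 3. The highest, 63.7% against 76.9%, was without replicate 2. The alternatives for any replicate and that of pooled peaks without replicate 3 (43) were added after the data were seen. The causes of these changes were not tested beyond the fewer peaks or libraries used. No paired analysis was possible because there was 1 group. Read depth is unknown, and peaks absent from a list of fixed length may still be bound weakly.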
